A study of Homo sapiens with 18 samples.

Results

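The leukocyte integrin genes ITGAM, ITGAX, ITGAL and ITGB2 were followed through the peak lists of 3 histone marks in NB4 cells, an established human line derived from acute promyelocytic leukemia (APL). The 4 genes were taken by name, each with 10 kb of flanking sequence on either side, and every peak overlapping these windows was kept: 168 of the 501863 peaks in the 18 lists. The cells were left untreated or received maltonis, a maltol-derived synthetic compound, at 10 µM for 24 h, and chromatin immunoprecipitation with sequencing (ChIP-seq) was performed for H3K4me3, H3K9me3 and H3K27ac with 3 replicates per condition. Untreated and maltonis cells are the same line, which carries the PML/RARα fusion, and the sample labels name no vehicle for the untreated cells.

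Integrins are cell surface receptors made of an α and a β subunit. The leukocyte integrins share the β2 subunit, CD18, encoded by ITGB2, without which the α subunits do not reach the cell surface. ITGAL encodes αL (CD11a, of the lymphocyte function antigen LFA-1), ITGAM encodes αM (CD11b, of Mac-1, which binds complement fragments and is used as a surface marker of maturing granulocytes and monocytes), and ITGAX encodes αX (CD11c, found on monocytes, macrophages and dendritic cells). Among the marks, H3K27ac lies at active promoters and enhancers, H3K4me3 at active promoters, and H3K9me3 at silenced chromatin.

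In the hg19 build of the lists, ITGAM lies at chr16:31271288-31344213, ITGAX at chr16:31366509-31394318 and ITGAL at chr16:30483983-30534506, all on the plus strand. ITGB2 lies at chr21:46305868-46348753 on the minus strand. Distances below are counted from the upstream end of these spans, called the start site, in the direction of transcription. No hg19 transcript annotation was used here, so exons, introns and start sites inside the spans were not placed. In the order of a RefSeq gene table (GRCh38.p14, used for order only), ITGAX is the next gene after ITGAM and ITGAD, another β2 partner, the next after ITGAX. ITGAL stands between SEPHS2 and ZNF768, and ITGB2 between PTTG1IP on its downstream side and SLX9 on its upstream side.

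The RefSeq promoter table held 1 of the 4 genes. The 250 bases before the ITGAM start (GRCh38.p14, chr16:31259725-31259974, plus strand, GC content 53.2%) are shown, as the promoter of the member gene the table held. Capitals mark the motifs found among GAGGAA (an ETS-type site such as PU.1 binds), GGGCGG (a GC box of the Sp1 type), AGGTCA (a retinoic acid receptor half-site) and CACGTG (an E-box), searched on both strands.

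ITGAM promoter: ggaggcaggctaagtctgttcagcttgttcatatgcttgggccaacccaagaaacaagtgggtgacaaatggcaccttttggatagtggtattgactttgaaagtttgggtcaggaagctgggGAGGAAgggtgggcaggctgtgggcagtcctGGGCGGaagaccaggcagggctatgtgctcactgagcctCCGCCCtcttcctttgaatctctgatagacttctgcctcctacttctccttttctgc

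GAGGAA stood at -127 to -122 on the gene's strand, and GGGCGG at -96 to -91 on the same strand and at -57 to -52 on the opposite strand. AGGTCA and CACGTG were not among these letters. Of 35116 promoters cut to the same length, 23.6% held GAGGAA, 42.6% GGGCGG, 12.1% AGGTCA and 6.34% CACGTG. These matches describe the letters only.

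Across the series, lists held 15841 to 17755 H3K4me3 peaks, 29432 to 35171 H3K9me3 peaks and 32024 to 36288 H3K27ac peaks. Reads inside peaks were 2595814 to 3366296 per H3K9me3 library and 17974940 to 20773316 per H3K27ac library, whereas no counts come with the H3K4me3 lists. The length under H3K27ac peaks was 217.8, 229.8 and 226.7 Mb in the untreated and 185.0, 182.9 and 171.9 Mb in the maltonis libraries, so the mark covered less of the genome in every maltonis library. The lengths below were therefore read against the same measure elsewhere. Peak lists do not show whether a mark changed in all cells or was lost from some of them.

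H3K27ac was the most extensive of the 3 marks at the integrin genes, with 104 of the 168 peaks. The length under H3K27ac peaks in the windows differed in direction between the genes (the plot of covered length by library). In the ITGAX window of 47.8 kb it was 14.7, 13.1 and 15.9 kb in untreated replicates 1 to 3 and 8.0, 7.8 and 4.4 kb in maltonis replicates 1 to 3. In the ITGB2 window of 62.9 kb it was 40.1, 41.3 and 41.7 kb against 30.9, 29.1 and 28.6 kb. Every maltonis library lay below every untreated library at both genes.

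In the ITGAL window of 70.5 kb the order was the opposite, with 25.1, 27.3 and 31.3 kb in the untreated and 33.3, 44.5 and 40.3 kb in the maltonis libraries. In the ITGAM window of 92.9 kb the values were 13.8, 22.2 and 16.4 kb against 11.0, 14.4 and 8.2 kb, and the conditions overlapped. The exact two-sided permutation p was 0.1 at ITGAX, ITGB2 and ITGAL and 0.2 at ITGAM. A p of 0.1 is the smallest that 3 against 3 libraries can give, so no length reached 0.05. Of all 50 kb tiles of the genome with an H3K27ac peak, 34.5% were less covered in every maltonis library and 4.76% more covered. The windows differ from these tiles in length and reach into neighbouring domains, so the shares are a rough guide. The higher coverage at ITGAL overlapped between conditions without the flanks (difference 9.17 kb) and with the strongest 75% of peaks (9.20 kb).

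**Figure D1:**
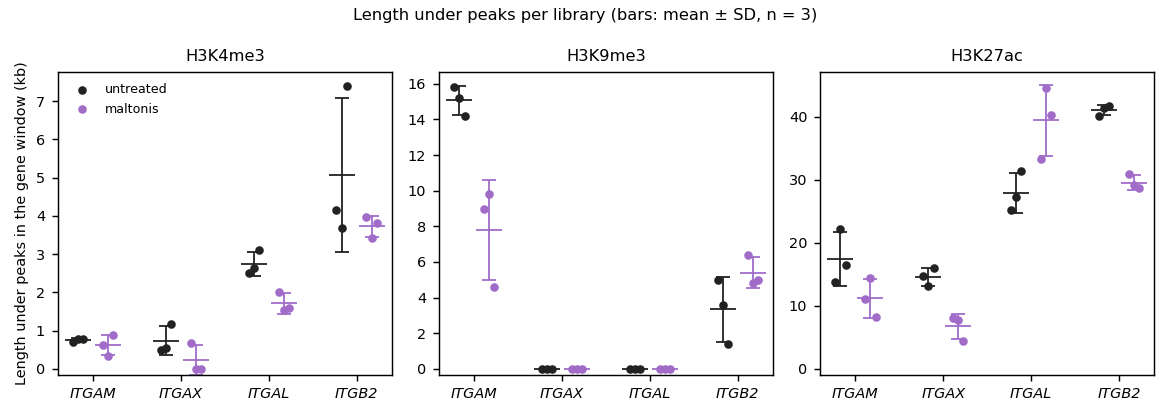
Length under peaks (kb) in each gene window, with 1 point per library and bars for the mean ± SD (n = 3), for H3K4me3, H3K9me3 and H3K27ac. For H3K27ac, untreated and maltonis libraries do not overlap at ITGAX and ITGB2 (lower with maltonis) or at ITGAL (higher), and overlap at ITGAM; H3K9me3 is at 0 over ITGAX and ITGAL in every library.

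Overlapping peaks of the 6 libraries were merged into regions, which gave 18 H3K27ac regions over the integrin genes out of 36947. 10 of them were called in all 6 libraries, 3 over ITGAM, 1 over ITGAX, 3 over ITGAL and 3 over ITGB2. Reads of these 10 were compared with edgeR's quasi-likelihood test fitted over all 20018 such regions, and calls needed an adjusted p (false discovery rate, FDR) no higher than 0.01 and a log2 fold change beyond 0.58 up or down. 3 regions were called with fewer reads after maltonis, at the ITGB2 and ITGAX start sites and inside ITGAM, and 1 with more, inside ITGAL. Over the genome 19.2% of the regions were called with fewer reads and 8.18% with more. The median log2 fold change was 0.10 over the 10 regions and -0.01 over all regions. The epic2 count of a region grows with the length called in that library, so each change was also fitted with the called length as an offset, which compares reads per called base.

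ITGB2, which encodes the shared β2 subunit, carried the broadest H3K27ac domain inside any of the 4 genes, spanning -5.65 to 24.4 kb from the start site (chr21:46324401-46354400). It held 2747, 2724 and 2659 reads in the untreated and 1234, 1281 and 1238 reads in the maltonis libraries. These are 135.8 ± 4.78 and 64.9 ± 3.53 RPM (reads scaled to the library's total in peaks, mean ± SD, n = 3), and the conditions were far apart. The edgeR log2 fold change was -1.07 (SE 0.04, FDR 8.2e-08), with 8.72% of all regions lower. Per called base it was -0.76 and was still called.

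The ITGB2 domain was also broken up in the maltonis libraries. It consisted of 1, 2 and 2 peaks in the untreated and 5, 6 and 6 in the maltonis libraries, with a called length of 29.6, 29.2 and 28.2 kb against 22.4, 20.2 and 20.4 kb. More pieces in every maltonis library were found in 2.55% of all H3K27ac regions called in 6 libraries. Those regions are of any width, and the median H3K27ac peak width was 3200 to 4600 bp by library. The share is thus only a rough guide for so wide a domain. The annotated start site lay inside a peak in every untreated library and in a gap between peaks in every maltonis library, since the nearest pieces ended at -0.85 to -0.25 kb and began at 0.15 to 0.35 kb. This site is the upstream end of the gene span. Start sites inside the span were not placed, so which start these cells use was not tested. In each maltonis library the piece with the most reads lay between 6.55 and 11.95 kb inside the gene, with 518, 589 and 544 reads over 4.0, 5.4 and 5.0 kb, or 129.5, 109.1 and 108.8 reads per kb. The other pieces of the domain had 36.5 to 56.7 reads per kb. The dense piece coincided with an H3K4me3 peak present in all 6 libraries, described below.

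**Figure D2:**
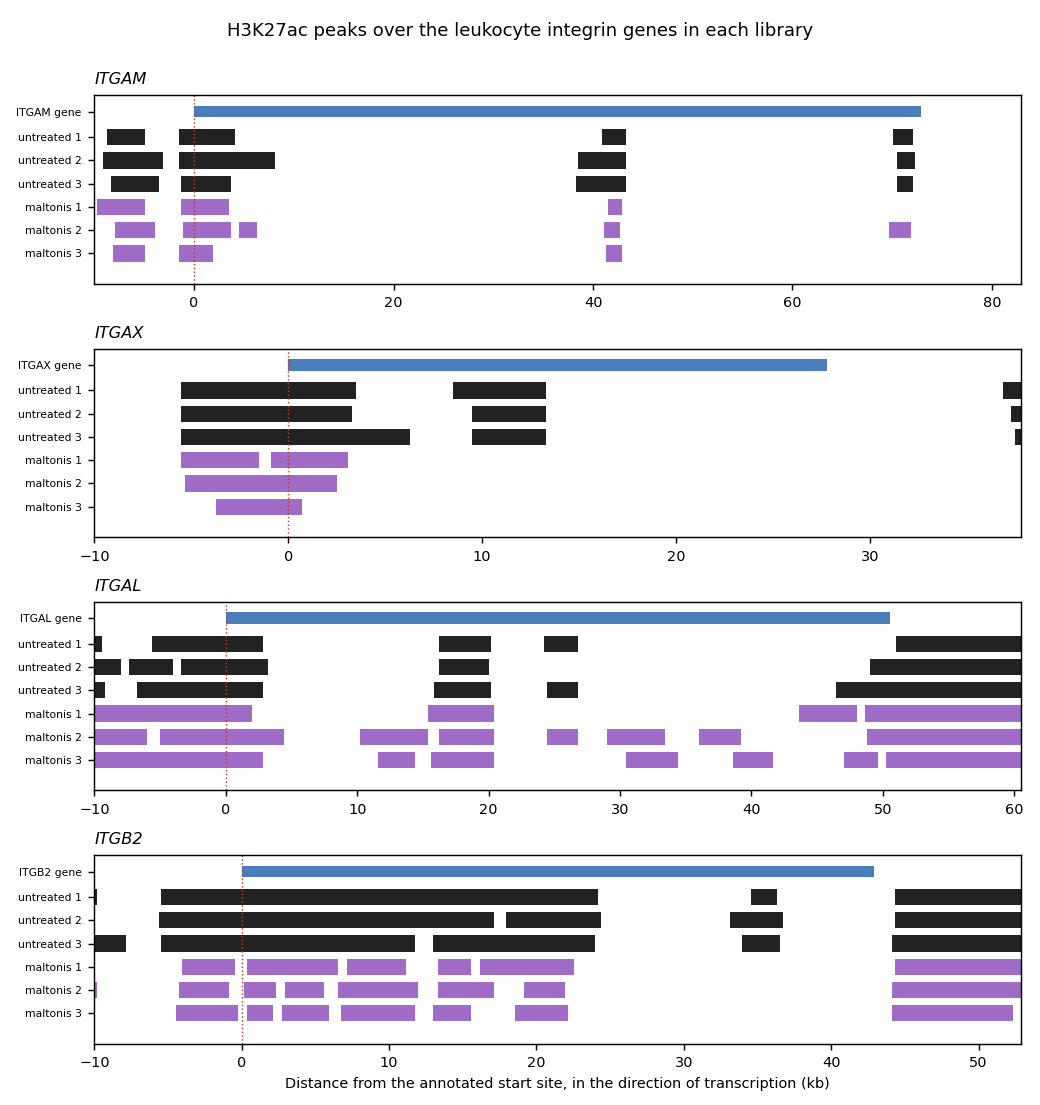
H3K27ac peaks in each library over ITGAM, ITGAX, ITGAL and ITGB2 with 10 kb flanks; the x axis is the distance from the annotated start site in kb, the blue bar the gene, black and purple bars the peaks of untreated and maltonis libraries. The ITGB2 domain, 1 to 2 peaks in untreated libraries, is split into 5 to 6 pieces in maltonis libraries, the ITGAX intragenic peak is seen in the 3 untreated libraries only, and further peaks stand inside ITGAL in maltonis libraries 2 and 3.

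Around this domain the ITGB2 window was uneven. A region 33.2 to 36.8 kb downstream of the start (chr21:46312001-46315600) was called in the 3 untreated libraries, with 75, 105 and 81 reads, and in no maltonis library. A region on the upstream side (chr21:46356601-46365600) had 578, 602 and 728 reads against 436, 416 and 386, for which edgeR gave a log2 fold change of -0.57 (SE 0.10, FDR 0.00085) that stopped short of the fold threshold. It was past the threshold when peaks within 1000 bp were merged (-0.59), without untreated replicate 1 (-0.62) or 2 (-0.62) and without maltonis replicate 1 (-0.68). Per called base its log2 fold change was -0.22 (SE 0.25, edgeR FDR 0.55), which was not called, and its reads per kb overlapped between conditions. A region beyond the downstream end, toward PTTG1IP (chr21:46284201-46304600), had 1946, 2004 and 2073 reads against 2160, 2486 and 2273, for a log2 difference of 0.24 (SE 0.03, edgeR FDR 6.3e-05) that was also below the fold threshold. Fewer reads in the ITGB2 domain thus stood beside slightly more reads in its downstream neighbour within the same libraries.

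ITGAX, the αX gene, had 3 H3K27ac regions in untreated cells and 1 in maltonis cells. The region over its start site (chr16:31361001-31372800) held 896, 880 and 958 reads in the untreated and 394, 483 and 312 reads in the maltonis libraries. The mean was 45.7 ± 2.22 and 20.5 ± 3.75 RPM (SD, n = 3), with no overlap. The log2 fold change was -1.16 (SE 0.11, edgeR FDR 1.5e-05), with 7.14% of all regions lower, and -0.75 per called base, which was still called. The called length was 9.0, 8.8 and 11.8 kb in untreated and 8.0, 7.8 and 4.4 kb in maltonis libraries. Maltonis replicate 1 had 2 separate peaks there, and the peak of replicate 3 ended 0.69 kb past the start site, where those of the untreated libraries reached 3.29 to 6.29 kb.

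The other ITGAX regions were an intragenic region 8.49 to 13.3 kb past the start (chr16:31375001-31379800), with 175, 171 and 159 reads in the untreated libraries, and a region at the edge of the downstream flank toward ITGAD (chr16:31403401-31405400), with 83, 76 and 69 reads. Neither was called in any maltonis library. A region without a peak has no deposited count, so reads there may be below the calling level and not absent. Over the 4 genes, 4 of the 18 H3K27ac regions were called in at least 2 more untreated than maltonis libraries, against 13.4% of all H3K27ac regions. Inside the ITGAX gene itself 8.29, 7.09 and 10.1 kb were covered in untreated and 3.09, 2.49 and 0.69 kb in maltonis libraries, again with no overlap.

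ITGAM, the αM gene, differed between its start and its body. At the start site (chr16:31269801-31279400) the reads were 313, 434 and 301 in the untreated and 320, 425 and 286 in the maltonis libraries. The ranges overlapped almost fully, and the log2 fold change was 0.02 (SE 0.16, edgeR FDR 0.93). An upstream region (chr16:31261601-31268200) had 270, 407 and 315 reads against 353, 365 and 369, also with overlap (log2 fold change 0.18, SE 0.14, edgeR FDR 0.26). Reads per kb were higher in every maltonis library in both regions. They were 55.89, 45.21 and 60.2 against 66.67, 64.39 and 84.12 at the start. Upstream they were 71.05, 67.83 and 65.62 against 73.54, 91.25 and 115.3. Per called base the log2 fold change was 0.30 at the start (edgeR FDR 0.19) and 0.32 upstream (edgeR FDR 0.12), neither called. The read counts do not exclude a change at the start of the size of their error.

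Inside ITGAM, a region 38.3 to 43.3 kb past the start (chr16:31309601-31314600) had 122, 198 and 195 reads in the untreated and 52, 76 and 66 reads in the maltonis libraries. All maltonis values lay below all untreated ones, and the log2 fold change was -1.36 (SE 0.21, edgeR FDR 0.00033). Here the called length moved with the count, from 2.4, 4.8 and 5.0 kb to 1.4, 1.6 and 1.6 kb, and per called base the log2 fold change was -0.16, which was not called. Reads per kb were 50.8, 41.3 and 39.0 in the untreated and 37.1, 47.5 and 41.3 in the maltonis libraries, and overlapped. The intragenic ITGAM peak was thus shorter in every maltonis library, with an overlapping read density. A region at the 3′ end (chr16:31341001-31343600) was called in 3 untreated libraries, with 86, 81 and 88 reads, and in maltonis replicate 2 alone, with 72 reads.

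ITGAL, the αL gene, went the other way. A region 15.4 to 20.4 kb past its start (chr16:30499401-30504400) had 170, 178 and 180 reads in the untreated and 273, 313 and 304 reads in the maltonis libraries. The log2 fold change was 0.80 (SE 0.12, edgeR FDR 0.0002), above 96.4% of all regions, and reads per kb did not overlap either, at 42.5, 46.8 and 40.9 against 54.6, 74.5 and 63.3. With the called length as an offset the log2 fold change was 0.44 (edgeR FDR 0.027), which missed both the fold and the FDR threshold.

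3 further regions inside ITGAL lay at 10.2 to 15.4, 29.0 to 34.4 and 36.0 to 41.6 kb, the first directly adjoining the called region. All 3 were called only in maltonis replicates 2 and 3, with 85 to 161 reads each, and not in maltonis replicate 1. They are the 3 of 18 H3K27ac regions called in at least 2 more maltonis libraries, against 4.52% of all H3K27ac regions. They lie in 1 gene and rest on the same 2 libraries. The lowest island score listed was 27.1 to 32.7 in the maltonis and 36.2 to 39.9 in the untreated libraries. Maltonis replicate 3 had scores of 35.9 and 37.3 in the regions at 10.2 and 36.0 kb, so at the common lowest score of 39.9 only the region at 29.0 kb was called in 2 more maltonis libraries. At that score, chosen after seeing the data, 1 of the 18 regions and 2.56% of all were called in at least 2 more maltonis libraries, and 5 and 18.8% in at least 2 more untreated libraries. Another region at 24.2 to 26.8 kb was called in 2 untreated and 1 maltonis libraries. Over the ITGAL gene alone, the covered length was 9.42, 8.52 and 13.7 kb in the untreated and 13.3, 25.5 and 20.3 kb in the maltonis libraries, and the conditions overlapped through maltonis replicate 1 (exact two-sided permutation p = 0.2).

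The start site of ITGAL could not be measured apart from its neighbour. In the untreated libraries its own peak held 480, 464 and 503 reads, and in maltonis replicate 2 it held 563 reads. In maltonis replicates 1 and 3 it was fused with the domain on the upstream side, toward SEPHS2, into peaks of 31.8 and 35.8 kb with 3311 and 3711 reads. The merged region (chr16:30434801-30488400) had 171.5, 175.5 and 173.4 RPM in the untreated and 240.4, 240.9 and 240.4 in the maltonis libraries. Its log2 fold change (0.47, SE 0.02, edgeR FDR 1.5e-07) was under the fold threshold and was 0.03 per called base. The region at the 3′ end, which extends over ZNF768's side (chr16:30527601-30559400), changed by 0.28 on the log2 scale (SE 0.03, edgeR FDR 2.5e-05), also not called, and -0.32 per called base.

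**Figure D3:**
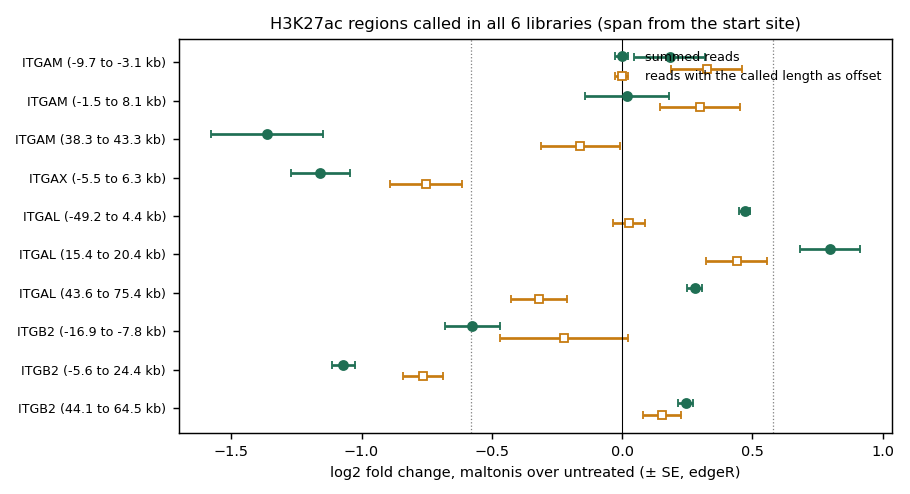
Log2 fold change (maltonis over untreated, x axis, with SE from edgeR) of the 10 H3K27ac regions over the integrin genes called in all 6 libraries, from summed reads (circles) and with the called length as offset (open squares); dotted lines mark the fold threshold of 0.58 on either side. The ITGAX and ITGB2 start regions are past the threshold on the lower side in both fits, while the ITGAM and ITGAL intragenic regions are past it only with summed reads.

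Over the 10 regions, called length was lower in every maltonis library at 3, which were the 3 called regions of ITGB2, ITGAX and ITGAM, and higher at 2, which were the start and 3′ regions of ITGAL. Among all H3K27ac regions called in 6 libraries the shares were 28.2% and 3.84%.

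Reads of the start-site regions were then compared between genes within each library, which needs no scaling between libraries. The log2 ratio of ITGAX to ITGB2 reads was -1.62, -1.63 and -1.47 in the untreated and -1.65, -1.41 and -1.99 in the maltonis libraries, and overlapped (difference -0.11, exact two-sided permutation p = 0.7). The ratio of ITGAM to ITGAX was -1.52, -1.02 and -1.67 against -0.30, -0.18 and -0.13, and that of ITGAM to ITGB2 -3.13, -2.65 and -3.14 against -1.95, -1.59 and -2.11. These 2 ratios were thus higher by 1.20 and 1.09 on the log2 scale, while the ITGAM count itself hardly differed (log2 fold change 0.02, edgeR FDR 0.93). The ratios use the same counts as the lower reads at ITGAX and ITGB2 given above, so they are not separate evidence.

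The ITGAL region, which includes the upstream domain, showed the largest differences in ratio, against ITGB2 and ITGAX. The log2 ratio of ITGAL to ITGB2 was 0.28, 0.39 and 0.39 in the untreated and 1.81, 1.97 and 1.90 in the maltonis libraries, and that of ITGAX to ITGAL differed by -1.65. The ratio of ITGAM to ITGAL differed by -0.45, but by 0.27 in reads per kb called, so its direction depends on the called length. 5 of the 6 pairs of genes did not overlap between conditions, each with an exact permutation p of 0.1 (0.12 after Benjamini-Hochberg adjustment over the 6 pairs), and ITGAX to ITGB2 was the pair that did. Among all pairs of H3K27ac regions called in 6 libraries, 67.1% did not overlap, so such a separation was common.

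**Figure D4:**
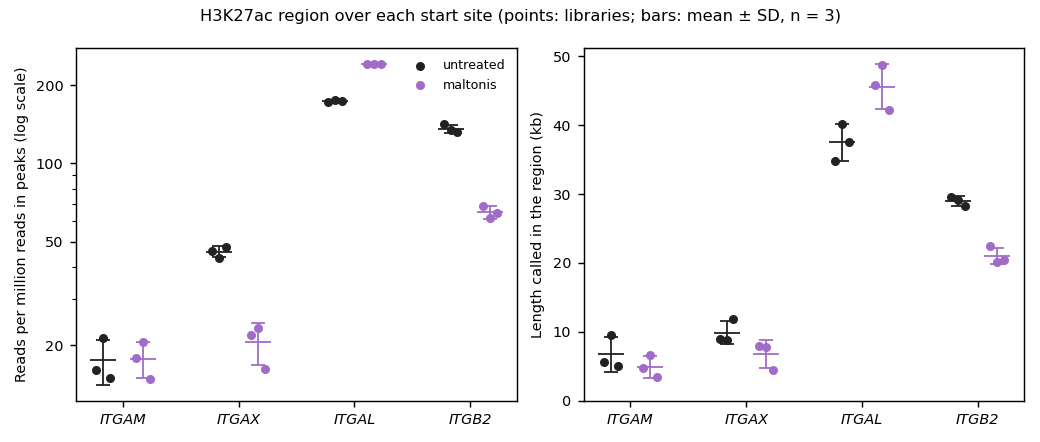
Left, RPM (reads scaled to the total in peaks, log scale) in the H3K27ac region over each start site; right, the length called in that region (kb); points are libraries and bars the mean ± SD (n = 3). Reads do not overlap between conditions at ITGAX and ITGB2 (lower with maltonis) or in the ITGAL region, which is merged with the upstream domain (higher), and overlap at ITGAM.

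H3K4me3 peaks were few at these genes, 40 over the 4 windows, merged into 15 of 27037 regions. 8 of the 15 were called in 1 library only, with a −log10 q between 1.36 and 3.52. Besides the ITGAM start described below, these lay upstream of ITGAM (chr16:31264329-31264958 in maltonis replicate 1 and chr16:31265168-31265568 in untreated replicate 3) and at ITGAX (chr16:31363567-31363908 upstream in maltonis replicate 1 and chr16:31404182-31404682 downstream in untreated replicate 3). The others were at ITGB2, in untreated replicate 3 (chr21:46326752-46327519 inside the gene and chr21:46301277-46304392 downstream) and untreated replicate 1 (chr21:46321813-46322135 inside the gene). In untreated cells the ITGAX start site (chr16:31365982-31367009) carried a peak in all 3 libraries, of 0.48, 0.55 and 1.03 kb, with a fold enrichment over the caller's local background of 3.29, 2.86 and 3.05. In maltonis cells this region was called in replicate 1 only, with 0.34 kb and a fold enrichment of 2.64. That peak began 0.163 kb past the start site. The region over the ITGAL start site (chr16:30483810-30485716) was called in the 3 untreated libraries over 1.05, 1.21 and 1.72 kb and in maltonis replicate 1 over 0.53 kb. The peaks of untreated replicates 2 and 3 began 0.083 and 0.017 kb past that start site. Only untreated replicate 1 and maltonis replicate 1 thus covered it. The regions at both ITGAX and ITGAL were called in fewer maltonis libraries.

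At the ITGAM start site (chr16:31271010-31271887) no untreated library and only maltonis replicate 3 had an H3K4me3 peak, with a −log10 q of 1.45. An ITGAM region near the 3′ end (chr16:31342419-31343229) was called in 3 untreated libraries and maltonis replicate 2, the same replicate numbers as the H3K27ac region there. At ITGB2 a small region 0.48 to 1.08 kb past the annotated start was called in untreated replicates 1 and 2 and in no maltonis library. In all, 4 of the 15 regions were called in at least 2 more untreated than maltonis libraries, 1 per gene, and none in at least 2 more maltonis libraries. Among all H3K4me3 regions, 6.24% were called in at least 2 more untreated and 3.25% in at least 2 more maltonis libraries. The peaks of these 4 regions had a −log10 q of 1.36 to 4.20, where the median of the lists was 14.7 to 19.3 and the lowest value 1.00 to 1.01.

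3 H3K4me3 regions were called in all 6 libraries. The strongest inside a member gene lay 7.86 to 10.3 kb past the annotated start of ITGB2 (chr21:46338414-46340890), beneath the dense H3K27ac piece described above. Its fold enrichment was 4.00, 4.24 and 4.14 in the untreated and 3.89, 3.64 and 3.44 in the maltonis libraries. Its −log10 q was 22.1, 24.3 and 25.4 against 12.4, 9.86 and 8.21, and its length 2.09, 2.15 and 2.11 kb against 2.30, 2.34 and 2.33 kb. The peak thus had a lower fold enrichment and a longer call in every maltonis library. The longer call was shared with 54.8% of all H3K4me3 regions called in 6 libraries. Leaving out peaks with a −log10 q under 10 gave a difference of -1.35 kb. That filter removed the peak in maltonis replicates 2 and 3, which then counted as no length. The peak kept in maltonis replicate 1 was still longer (2.30 kb) than every untreated one. On the log2 scale the fold enrichment of this region, centred on the library median, differed by -0.02 (SE 0.06, limma adjusted p = 0.83).

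The other regions in all 6 libraries lay at -4.21 to -2.55 kb from the ITGB2 start, with a fold enrichment of 2.98, 2.76 and 2.97 against 2.51, 2.78 and 2.55, and downstream of ITGAL on the ZNF768 side (chr16:30537154-30538751), with 4.36, 4.47 and 4.73 against 3.98, 4.06 and 4.12. Both had a centred log2 difference of 0.00 (limma adjusted p = 0.96 and 0.99). Without centring, the differences of the 3 regions were -0.15 to -0.18, beside a median of -0.14 over all regions. None of the 3 was called by limma in either form. With centring 0 had an unadjusted p under 0.05, and 0.489% of all regions were called lower and 0.441% higher. Without centring the limma adjusted p of the 3 regions was 0.032 to 0.069, and all were short of the fold threshold.

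By covered length, H3K4me3 in the ITGAL window was lower in every maltonis library, at 2.52, 2.63 and 3.10 kb against 2.02, 1.53 and 1.59 kb, and the other 3 windows overlapped. The order turned at ITGAL with the strongest 75% of peaks or a −log10 q of at least 10, to 0.11 kb more in the maltonis libraries, since only the downstream region on the ZNF768 side was then counted. Among 50 kb tiles with an H3K4me3 peak, 5.24% were lower and 28.3% higher in every maltonis library, and none of the 4 genes was among the windows with more coverage.

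**Figure D5:**
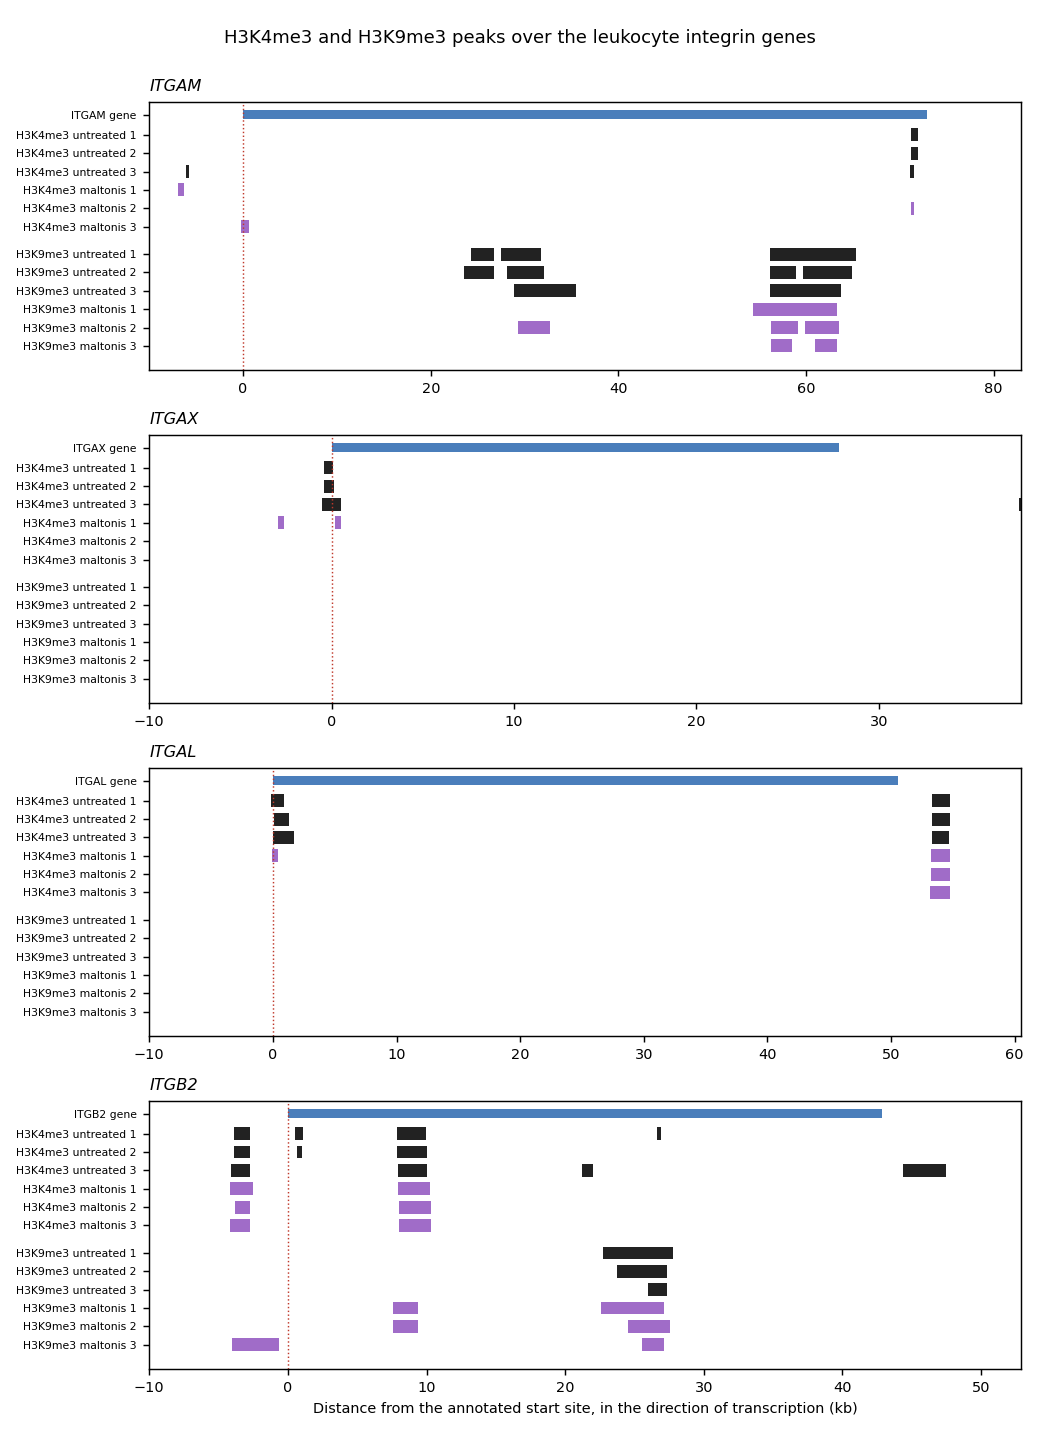
H3K4me3 and H3K9me3 peaks in each library over the 4 genes with 10 kb flanks, drawn by distance from the annotated start site (kb, x axis); the blue bar is the gene, black and purple bars are untreated and maltonis peaks. H3K4me3 stands in the regions over the ITGAX and ITGAL start sites in 3 untreated libraries and 1 maltonis library, though not every such peak covers the start itself. H3K9me3 stands inside ITGAM and ITGB2, and no H3K9me3 peak is seen over ITGAX or ITGAL.

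H3K9me3 was found at ITGAM and ITGB2, with 24 peaks merged into 6 of 46996 regions. No library of either condition had an H3K9me3 peak in the ITGAX or ITGAL window. This says only that none was called at this depth.

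Inside ITGAM, H3K9me3 covered 15.8, 15.2 and 14.2 kb in the untreated and 9.0, 9.8 and 4.6 kb in the maltonis libraries (15.1 ± 0.81 and 7.80 ± 2.80 kb, SD, n = 3). Every maltonis library lay below every untreated one (exact two-sided permutation p = 0.1), and 7.49% of 50 kb tiles with an H3K9me3 peak showed the same order, with 4.09% in the opposite order. The lower coverage came mainly from a pair of regions in the middle of the gene. The region at 23.5 to 26.7 kb (chr16:31294801-31298000) was called in untreated replicates 1 and 2 only, with 39 and 48 reads, and that at 27.5 to 35.5 kb (chr16:31298801-31306800) in 3 untreated libraries, with 70, 58 and 87 reads, and in maltonis replicate 2, with 51 reads.

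These were 2 of the 6 H3K9me3 regions, called in at least 2 more untreated libraries, against 11.7% of all H3K9me3 regions. The region nearer the 3′ end, 54.3 to 65.3 kb past the start (chr16:31325601-31336600), was called in all 6 libraries with 152, 140 and 131 reads in the untreated and 147, 109 and 79 in the maltonis libraries. These counts overlapped, and its log2 fold change was -0.24 (SE 0.22, edgeR FDR 0.69). None of the ITGAM H3K9me3 regions overlapped its H3K27ac or H3K4me3 regions.

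At ITGB2, H3K9me3 covered 5.0, 3.6 and 1.4 kb in the untreated and 6.4, 4.8 and 5.0 kb in the maltonis libraries, with overlap (exact two-sided permutation p = 0.3). A region at 22.6 to 27.8 kb (chr21:46321001-46326200) was called in all 6, with 89, 60 and 31 reads against 97, 57 and 36, and its log2 fold change was 0.16 (SE 0.39, edgeR FDR 0.91). A region at 7.55 to 9.35 kb (chr21:46339401-46341200) was called in maltonis replicates 1 and 2, with 38 and 37 reads over 1.8 kb each, and in no untreated library. It is the 1 of 6 H3K9me3 regions called in at least 2 more maltonis libraries, against 4.07% of all H3K9me3 regions.

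This ITGB2 region overlapped the H3K4me3 region at 7.86 to 10.3 kb over 1490 bp, which is 60.2% of the H3K4me3 region, and lay within the H3K27ac domain. In maltonis replicate 3 another H3K9me3 peak of 3.4 kb with 46 reads was called upstream of the start, where it overlapped 90.2% of the upstream H3K4me3 region. No untreated library had an H3K9me3 peak at either place. The marks were measured in separate immunoprecipitations, so whether they lay on the same chromosomes was not tested. Both peaks at 7.55 to 9.35 kb ranked low in their lists, above 9.45% and 10.5% of the peaks by island score.

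Neither of the 2 H3K9me3 regions called in all 6 libraries was called by edgeR, and neither by DESeq2, and 0 had an unadjusted p under 0.05. Over the genome 0.0141% of the 14226 regions were called with fewer reads and 0.253% with more. The SE of 0.22 and 0.39 on the log2 scale means that changes of that size were not detectable at these counts.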

How the data were processed

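The sample titles gave the groups and the replicate numbers, and the replicates are biological triplicates according to the study's methods. Uniquely mapped reads had been aligned to hg19. The submitters' processing notes name BWA, SAMtools, MACS2 and SICER, while the study's methods name MACS2 for H3K4me3 and epic2 for the other marks, each run per library. Parameters were not given in the sources used here. For H3K4me3 the deposited columns are a score, a fold enrichment (the ratio to the caller's local background) and deposited −log10 p and −log10 q values. Each epic2 region, built from 200 bp windows, carries a deposited read count, not normalised by the authors, and an island score.

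The members and lists were chosen with earlier results of these data known. Peaks of a mark sharing 1 bp or more were joined into regions. RPM values are reads scaled to 1000000 reads in peaks of a library. Counts of regions called in all 6 libraries were tested with edgeR 4.0.16 (TMM, quasi-likelihood, R 4.3.3), and log2 fold enrichments with limma 3.58.1 (pseudocount 0), with Benjamini-Hochberg adjustment over all regions and the study's criteria (FDR of at most 0.01, log2 fold change of at least 0.58). Lengths and ratios were compared with exact permutation tests over 20 assignments. Scripts were tested on simulated counts. DESeq2 1.42.0, other scalings, filters and windows were alternatives. The regions named are all merged regions in the windows of the 4 genes. Control reads were not used here. Other integrin pathway genes were not analysed here, because no hg19 annotation was used.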

Additional observations from a re-analysis of the deposited data

How the results depend on the processing

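Over 69 results and 705 alternative values, 622 were classed as the same. For single values this meant the same direction and side of the threshold. For counts of regions, windows or gene pairs it meant an equal or similar count. The 4 called H3K27ac regions stayed called with RLE size factors, DESeq2, merging within 1000 bp, the replicate block and without each library in turn. The upstream ITGB2 region joined them, for 4 with fewer reads in place of 3, with that merging and without untreated replicate 1 or 2 or maltonis replicate 1. That merging also joined the called ITGAL region to the adjoining region called only in maltonis replicates 2 and 3. The ITGAL log2 fold change of 1.13 under it is therefore not for the same region. With the called length as offset, 2 stayed called with fewer reads and the count called with more was 0, and among regions of similar length, which held 1 member region, both counts were 0. That offset turned the log2 fold change of the ITGAL 3′ H3K27ac region to -0.32 and that of the ITGAM 3′ H3K9me3 region to 0.073.

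At a common lowest island score, chosen after seeing the data, 1 H3K27ac region was called in at least 2 more maltonis libraries, against 3.

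Windows depended on the peaks kept. For H3K4me3, 1 window was less covered in every maltonis library, 2 without flanks, with 25 kb flanks and under the replicate block, 0 at a −log10 q of at least 10, and 1 to 2 when 1 library was left out (2 without untreated replicate 2, maltonis replicate 1 or maltonis replicate 3). The ITGAL difference became 0.11 kb with the strongest 75% of peaks or a −log10 q of at least 10, and 1 window was then more covered. For H3K9me3, 1 window was more covered under the replicate block, and 0 to 1 with 1 library left out (1 without untreated replicate 1). For H3K27ac, 0 windows were more covered without flanks or with the strongest 75%.

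Called lengths turned to -1.24 kb (upstream ITGB2 H3K4me3, strongest 75%), -1.35 kb (intragenic ITGB2 H3K4me3, −log10 q of at least 10) and 0.20 kb (intragenic ITGB2 H3K9me3, strongest 75% or a common lowest score). With the strongest 75% of peaks, 1 H3K4me3 region was shorter and 1 H3K27ac region longer. At a −log10 q of at least 10, 1 H3K4me3 region was longer. Without centring, the H3K4me3 log2 differences were -0.16 downstream of ITGAL and -0.15 upstream of ITGB2, and -0.0045 and -0.12 with quantile normalization. Per kb, the log2 ratio of ITGAM to ITGAL differed by 0.27 and that of ITGAX to ITGB2 by 0.014. The cause of the shifts in log2 differences and ratios was not tested.

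With 1 library left out, log2 differences ranged from -0.11 to 0.19 at the ITGAM start (H3K27ac), from -0.22 to 0.59 in the ITGB2 H3K9me3 region called in all 6 libraries, from -0.030 to 0.045 for H3K4me3 downstream of ITGAL, from -0.039 to 0.033 upstream of ITGB2 and from -0.077 to 0.019 inside ITGB2. The ITGB2 H3K9me3 length ranged from -1.23 to 0.57 kb, the ITGAX to ITGB2 ratio from -0.24 to 0.046, and H3K9me3 regions shorter in every maltonis library from 0 to 1 (1 without maltonis replicate 1).

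Same-numbered libraries did not deviate together (correlations from -0.020 to 0.030 over regions), and not every library correlated best with its own number. The main fits did not pair the numbers. These correlations cannot show whether same-numbered libraries were handled together. Over the genome the replicate block gave 1594 H3K27ac regions with more and 3741 with fewer reads, against 1637 and 3840. H3K9me3 calls depended on the tool, with 36 more and 2 fewer in edgeR, 132 and 39 in DESeq2 and 11 and 0 under the block. H3K4me3 calls were 55 higher and 61 lower, against 12 and 273 without centring. Counts were low at the H3K9me3 regions, and H3K4me3 depth is unknown.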
